A study of Homo sapiens with 12 samples.

Results

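The regions described here are the peaks at the 5 prime end of genes in an m7G meRIP-seq study of the human monocytic leukemia line THP-1. In m7G meRIP-seq, RNA carrying 7-methylguanosine is pulled down with an antibody and sequenced beside the RNA that went into the pull-down. A region belongs to the set when it overlaps exactly 1 protein-coding RefSeq gene body and its midpoint lies in the first 10% of that body, counted from the 5 prime end on the strand the peak table gives. Of 9958 deposited peaks, 3029 met this rule, which is 30.4% of all peaks and 33.0% of the 9165 peaks in 1 protein-coding gene. They came from 2033 genes. Position alone chose them, not read counts, although every peak in the table had been called by the authors on these same libraries.

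All cells were made adherent with PMA (phorbol 12-myristate 13-acetate, which drives THP-1 cells toward a macrophage-like state) at 100 ng/ml for 48 hours. NC is the control group and KD the group with an shRNA against METTL1. Each has libraries of input RNA (IN) and of immunoprecipitated RNA (IP), with 3 libraries in each of the 4 groups. The RNA was polyadenylated, selected on oligo d(T) beads. The labels do not say whether the libraries of a group came from separate cultures, so p-values measure the spread between these libraries, which may be technical. The hairpin sequence, the number of clones and the antibody are not given in the sources used here.

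Reads in all peaks ranged from 907024 to 1105477 per input library and from 1476384 to 1888972 per IP library, of which 159190 to 446119 fell in the 5 prime end peaks. The table holds no region at METTL1, so the knockdown could not be checked in it, and none at WDR4, RNMT or BUD23. Of 18 macrophage markers 8 had a region (CD68, CD74, CTSB, CTSD, ITGAM, ITGAX, LYZ and SPI1), and CD14, CSF1R and PTPRC had none. Their summed level, in CPM (counts of a library scaled to a common total over all peaks), was 588.7 to 726.7 in NC input and 1032.8 to 1138.9 in KD input. Of 11 markers of HEK293, a human embryonic kidney line, 8 had a region and summed to 10472.7 to 11224.4 in NC input against 1249.8 to 1470.9 in KD input. NEFM, a neurofilament gene, had 19977 reads over the NC input libraries and 6 over the KD input libraries, HOXC8 had 831 and 2, and LIN28B (191) and KRT18 (138) were at 0 in KD input. TCEAL9, also on the HEK293 list, had 15655 reads in NC input and 7695 in KD input. The NEFM, HOXC8, LIN28B and KRT18 reads go against the THP-1 label of the NC libraries, although the list was chosen with earlier results of these data known. Every comparison of KD with NC below is between libraries that differ in this way, and the knockdown and this difference cannot be told apart. Comparisons of IP with input were therefore made within each condition. Fibroblast markers had a region for 4 of 8 genes and stayed between 23.1 and 61.4 in every library, while the 8 lymphoid and 7 erythroid markers had no region.

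7-methylguanosine is best known as the cap at the 5 prime end of messenger RNA, joined to the first transcribed nucleotide through a triphosphate bridge and made by RNMT. The cap is bound by eIF4E in the cytoplasm and by the nuclear cap-binding complex, and it protects the transcript from exonucleases. METTL1, with its partner WDR4, places the same methyl group inside RNA, chiefly in the variable loop of tRNAs, and internal m7G has also been described in messenger and microRNA. An antibody against m7G can in principle meet either form, and a peak near a gene start does not tell which one was bound.

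The gene starts shown first are those of peaks raised and lowered by the pull-down in both conditions, because the cap sits on the first transcribed base. They come from the 10 raised and 10 lowered peaks with the largest log2 IP over input, ranked by the smaller of the NC and KD values, among peaks with over 3 reads in every group and libraries that do not overlap. Only those whose peak covers a start with a RefSeq sequence are printed. This leaves out CSRNP2 and SF1, whose peaks do not cover the start, and ASPHD1, SIX5 and EIF3G, for which no start sequence was listed. Each line gives the RefSeq sequence (GRCh38.p14) around the listed start nearest to the peak, with the 15 bases before the start in lower case and the first 15 transcribed bases in capitals. The first set had more reads in IP than in input.
FBXW4: acatggtgtcgcctcCTCCCGGGGCGGCGG
ZFAND5: ccgggcggcgagtgcGTTAGTCGGCCGGGA
LPAR2: cccgcctcccgcgccCTCTCAGCAACCCGC
ENKD1: acggaagccacggttGCCCGGCAACAACAA
CORO1C: ttcctggctttgggtGCGAGACCAGCTCTG
ASH1L: gaggaggaggaggagGAGGCTTGGGCTTGC
EIF4G1: tctgtgcggggagccGGAAATGGTTGTGGA
The second set had fewer reads in IP than in input.
M6PR: ctgtttccggttcccAGAGTGGGGCACAGC
NAP1L1: ggcgggctcttgggtCTTTTTTAGCGCCAT
CIAO2A: gaagaccaggaagttGATCAATCCCGAGGC
PPT1: cgcgcccgcggtcatGTGACACAGCGAAGA
NCL: tcagtctttcgcctcAGTCTCGAGCTCTCG
XPO1: atgggggagggagggGCTGCCGACTCCCTG
ACSL1: gagccggcgcggggcAGGGAGTGGGCTGCA
ARPP19: ttgaaggaaaaaaggAAGTGTTTGGACGAC
All these peaks cover the start shown. The start windows lie at chr10:101695156-101695185 for FBXW4, chr9:72365194-72365223 for ZFAND5, chr3:184314591-184314620 for EIF4G1, chr12:8949631-8949660 for M6PR and chr2:231464470-231464499 for NCL; EIF4G1 is on the plus strand and the other 4 on the minus strand. Grouped by the first transcribed base, every tested 5 prime end peak that covers a listed start gave a median log2 IP over input in NC of 0.39 for the 389 whose first base is A, 0.55 for the 491 with G and 0.91 for the 81 with C. In KD these medians were 0.37, 0.58 and 0.57. Only 3 such peaks began with T.

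Longer stretches show the base composition upstream. The 100 bases before the start are printed for 2 raised genes and 1 lowered gene, with each GGGCGG or its reverse complement CCGCCC (the GC box, the letters Sp1-family factors are known to bind) in capitals.
ZFAND5: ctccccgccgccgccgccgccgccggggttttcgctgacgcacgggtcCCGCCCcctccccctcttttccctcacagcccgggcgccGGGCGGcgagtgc
EIF4G1: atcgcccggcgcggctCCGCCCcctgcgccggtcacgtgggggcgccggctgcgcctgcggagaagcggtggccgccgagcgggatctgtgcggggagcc
CIAO2A: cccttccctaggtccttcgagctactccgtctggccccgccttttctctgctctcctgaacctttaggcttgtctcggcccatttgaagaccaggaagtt
ZFAND5 holds 2 GC boxes in this stretch, EIF4G1 1 and CIAO2A 0. The letters did not separate the raised from the lowered genes: SF1 held 2 and NAP1L1, PPT1 and ARPP19 1 each among the lowered, and ENKD1 and CSRNP2 held 0 among the raised. In the 300-base window from 250 bases before to 50 bases after the start, GGGCGG on either strand occurred in 78.4% of the 1672 genes with a 5 prime end peak and a RefSeq promoter sequence. It occurred in 69.8% of 1162 genes with a peak in the last 10% and none in the first, and in 58.3% of all 15759 protein-coding genes with a sequence. TATAAA on either strand occurred in 4.37%, 4.65% and 9.76% of the same sets, and CCAAT in 37.8%, 33.5% and 36.4%. The GC content of the window was a median of 67.2% in genes with a 5 prime end peak and 62.7% in all genes. It was 66.3% in genes with a peak in the last 10% and none in the first, near that of the 5 prime end genes.

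Most 5 prime end peaks sat close to the gene start rather than spread over the first 10% of the body. The median distance of the midpoint from the start was 165.5 bases (quartiles 74.5 and 420.5), although the median gene body was 30054 bases long. Within 100 bases of the start lay 33.7% of the peaks, within 500 bases 79.0% and within 1000 bases 90.3%. The peak itself covered the start in 1435 cases (47.4%), and 165 midpoints lay upstream of it. Of the 2482 peaks whose gene has a listed RefSeq start, 55.6% covered one, and the median distance to the nearest fell to 104 bases. Of 237 peaks over 1000 bases from the body start that could be matched, 108 lay within 500 bases of another listed start of the same gene. In 59.9% the midpoint was in the first 1% of the body or upstream of it. The peak just inside the limit was in PEX5, at 9.978% of the body, and the one just outside in HNRNPDL, at 10.034%.

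**Figure D1:**
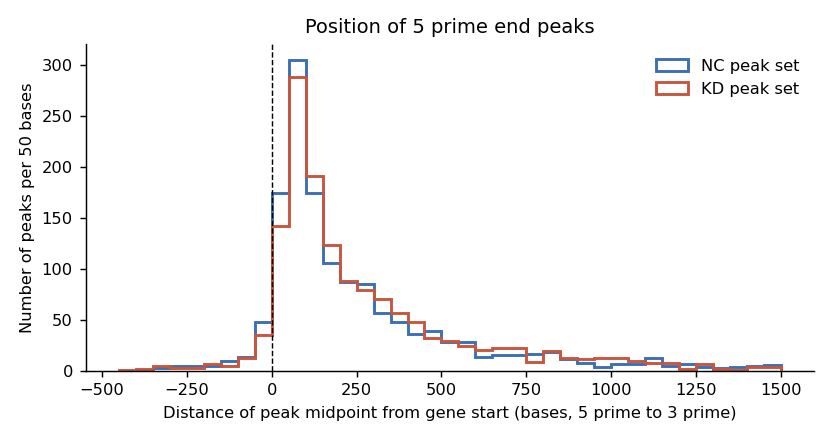
Number of 5 prime end peaks per 50 bases (vertical axis) against the distance of the peak midpoint from the gene start in bases (horizontal axis, cropped at 1500), for the NC and the KD peak set. Both sets peak between 50 and 100 bases downstream of the start, and 90.3% of all midpoints lie within 1000 bases.

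The 2 peak sets gave near equal numbers at the 5 prime end, 1511 named for NC and 1518 for KD. Their midpoints lay a median of 158.5 and 179 bases from the start. Of the 5 prime end peaks, 50.6% shared 1 base or more with a peak called in the other condition, compared with 29.4% of peaks in the last 10% of a gene and 37.0% of those between. By gene, 742 had a 5 prime end peak in both sets, 655 in KD alone and 636 in NC alone. Peak width was a median of 193 bases (122 to 342) at the 5 prime end and 152 bases (92 to 241) in the last 10%. The authors' own fold enrichment per peak had a median of 8.34 at the 5 prime end, 9.82 in the last 10% and 7.81 between. By that measure the 5 prime end peaks were not the most enriched. One gene had 1 peak in 1228 cases, 2 in 677 and 3 or more in 128, so peaks of a gene, and overlapping NC and KD peaks, are not independent; the 3029 peaks formed 2226 clusters of overlapping peaks.

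A share of the 5 prime end peaks also lay over a second, non-coding gene. A RefSeq lncRNA gene overlapped 316 of them (10.4%), against 7.02% of the other peaks in 1 protein-coding gene, and miRNA genes overlapped 16 (0.53% against 0.1%). Reads of such overlapping genes cannot be told apart by the count table. The peaks assigned to COX1 were a case of their own. They run from 7445 to 7514 on the minus strand of the mitochondrial genome, touch the coding gene by 1 base and contain the whole of TRNS1 (7446 to 7514), a mitochondrial serine tRNA. They met the rule only because position was counted on the minus strand of the peak, from the high-coordinate end of the COX1 body. Their midpoint lay at -34.5 bases, outside that body. Whether COX1 is read from that strand was not checked, so they may not lie at its 5 prime end. The reads of this region were fewer in the pull-down in both conditions, and the table does not separate reads of the tRNA from those of other transcripts across it. The level was 1180, 1500 and 1150 CPM in the NC input libraries and 490, 632 and 799 in NC IP, and 1460, 1110 and 953 in KD input and 547, 578 and 592 in KD IP. All IP libraries were below all input libraries. On the log2 scale IP against input came to -1.0 ± 0.15 (SE) in NC (edgeR adjusted p = 7.51e-06) and -1.04 ± 0.15 in KD (5.22e-06). A glycine tRNA gene, TRG-TCC1-1, lies inside the 2 overlapping peaks at the start of DPP9, a dipeptidyl peptidase. The NC-set DPP9 peak had 29 and 36 reads in NC input and IP and 55 and 34 in KD input and IP. That peak stood at log2 -0.64 ± 0.54 in NC (adjusted p = 0.339) and -1.56 ± 0.52 in KD (0.0165).

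Counts allowed a test for 1958 of the 3029 peaks (64.6%, in 1287 genes), out of 5113 tested regions in the whole table. The other 1071 had a median of 32 reads over the 12 libraries, against 479 for those tested. The test was edgeR's quasi-likelihood test on all 5113 regions, and a region was called at a Benjamini-Hochberg adjusted p under 0.05. Its log2 values are relative to the average region, since the scaling (TMM) sets the bulk of regions near 0.

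The pull-down took up a larger part of its reads from 5 prime end peaks than the input did, in each condition. Of all peak reads, they held 18.96%, 17.55% and 18.27% in the NC input libraries and 23.15%, 21.14% and 21.04% in NC IP. In KD they held 19.69%, 20.52% and 20.72% of input reads and 22.86%, 23.62% and 23.85% of IP reads. Reads under overlapping peaks entered these sums once for each peak. Every IP library was above every input library, and the lowest IP library of NC was near the highest KD input library. The difference was 3.52 percentage points in NC and 3.13 in KD, each with an exact two-sided permutation p = 0.1, the smallest that 3 libraries against 3 allow. With libraries exchanged within condition and both conditions averaged it was 3.32 points, with an exact permutation p = 0.005, the smallest possible there, and 0.0375 after adjustment over 15 comparisons of shares. The share of peaks in the last 10% of genes went the other way, by -1.65 points (exact permutation p = 0.005, adjusted 0.0375). With only the peaks of each set whose authors' fold was above the set's median, the KD difference was -1.26 points and the average of both conditions 0.18 (exact permutation p = 0.885), so the direction in KD depended on which peaks were kept.

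**Figure D2:**
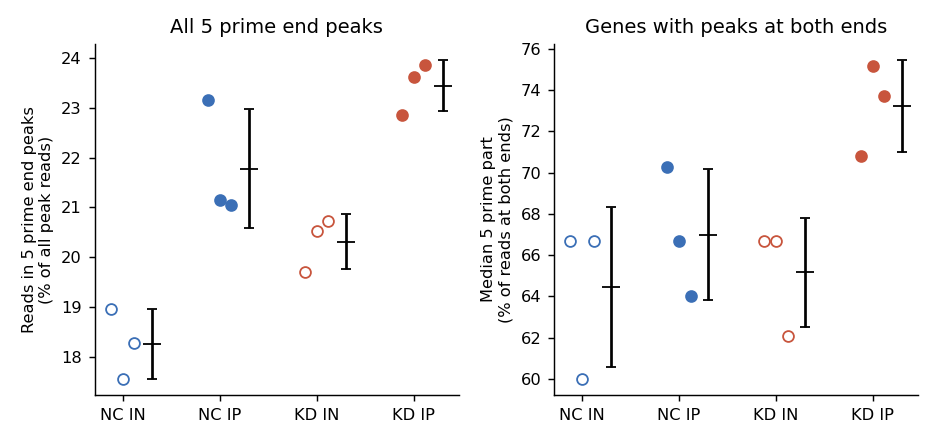
Left, percent of all peak reads that fall in 5 prime end peaks in each library; right, median over genes with peaks at both ends of the percent of their end reads that lie at the 5 prime end. Points are the 3 libraries of a group (open, input; filled, IP), bars are mean ± SD, and the vertical axes do not start at 0. On the left every IP library is above every input library; on the right the NC groups overlap and the KD groups do not.

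Single peaks moved in both directions. In NC 570 of the 1958 tested 5 prime end peaks (29.1%) were higher in IP and 297 (15.2%) lower, where 22.7% and 24.0% of all tested regions were called higher and lower. In KD 573 (29.3%) were higher and 282 (14.4%) lower, against 23.5% and 21.4% of all. Over tested 5 prime end peaks the log2 IP over input had a median of 0.48 (NC) and 0.51 (KD), and over all tested regions of 0.13 and 0.23. Tested peaks in the last 10% had medians of -0.08 and 0.05. Scaling moved these values: by library size alone the medians of all regions rose to 0.42 and 0.40 and those of the 5 prime end peaks to 0.78 and 0.69, and the higher calls made up 81.3% of the NC calls in place of 65.7%. The input and IP libraries did not overlap for 1111 peaks (56.7%) in NC and 1127 (57.6%) in KD, next to 57.8% and 56.6% of all regions, so the share of separated peaks was that of the table as a whole.

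The peaks that moved were to a large part the same ones in both conditions, which have separate input libraries. Higher in both were 387 peaks of 228 genes, lower in both 210 peaks of 146 genes, and 2 were called in opposite directions. Of the peaks higher in NC 67.9% were higher in KD, and of those higher in KD 67.5% were higher in NC. These counts and shares are not given for all tested regions, so whether they differ from the table as a whole was not tested. Across the 1958 peaks the log2 values of NC and KD had a Pearson r of 0.67 and a Spearman rho of 0.74; overlapping peaks share reads, so this is a description.

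**Figure D3:**
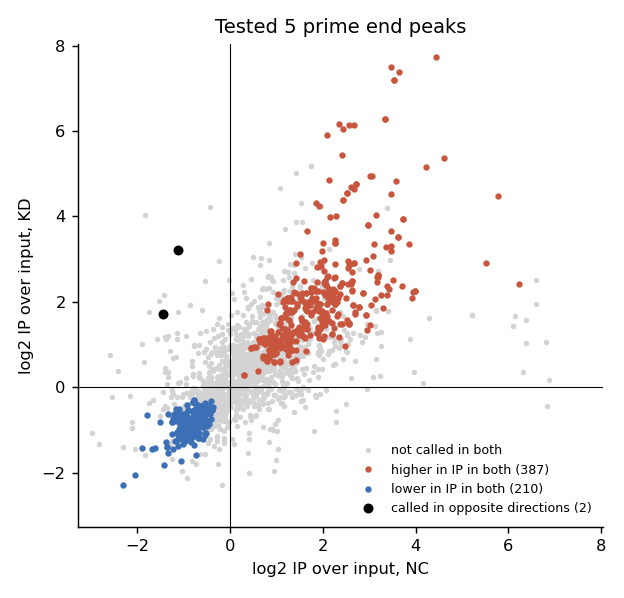
Log2 IP over input of the 1958 tested 5 prime end peaks in NC (horizontal) and KD (vertical), from the edgeR fit. Coloured points were called in both conditions: 387 higher, 210 lower and 2 in opposite directions; grey points were not called in both.

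FBXW4, which encodes an F-box and WD repeat protein of a ubiquitin ligase family, had the largest rise of these 10 raised peaks by the smaller log2 of both conditions. Some peaks with 3 reads or fewer in a group, which the ranking left out, had log2 values above those of several of the 10: ZNF274 was at 3.62 in NC and 3.52 in KD, from 3 input reads in each condition, and SLC17A7 at 4.43 in NC from 3 input reads, with 0 input reads in KD. The FBXW4 peak of 750 bases (chr10:101694456-101695205) covers the start printed above. It had 40.9, 35.4 and 35.8 CPM in the NC input libraries and 998, 880 and 877 in NC IP. In KD input it had 18.3, 15.3 and 12 CPM and in KD IP 736, 591 and 569. IP was above input in every library by far more than the spread within a group: 24.5-fold in NC (log2 4.61 ± 0.16 SE, adjusted p = 6.53e-17) and 41.2-fold in KD (5.37 ± 0.18, 3.06e-17). The change between conditions was 0.75 ± 0.27 and was not called (adjusted p = 0.289).

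ASPHD1 and ZFAND5 followed with high counts. ZFAND5, a zinc finger protein with roles in proteasomal degradation, had 30.4, 16.4 and 30.1 CPM in NC input and 438, 340 and 249 in NC IP, and 31.5, 28.7 and 38.1 in KD input and 410, 447 and 656 in KD IP. Its log2 was 3.72 ± 0.25 in NC and 3.95 ± 0.24 in KD. ASPHD1 had 333, 244 and 259 CPM in NC input and 3440, 2740 and 3090 in NC IP, the highest IP level among the 10 raised peaks. In KD ASPHD1 had 321, 301 and 374 CPM in input and 4550, 3630 and 4500 in IP. For both genes the groups were wide apart and the 2 conditions gave near equal log2 values.

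EIF4G1, which bridges the cap-binding protein eIF4E and the ribosome, had 23.0, 19.0 and 19.6 CPM in NC input and 207, 203 and 154 in NC IP. In KD it had 16.2, 29.6 and 30.4 in input and 152, 133 and 186 in IP. Its peak (chr3:184314494-184315253) rose 9.07-fold in NC (log2 3.18 ± 0.24, adjusted p = 1.48e-10) and 6.14-fold in KD (2.62 ± 0.23, 1.50e-09). SIX5, a homeobox transcription factor, rose by 2.98 ± 0.24 and 3.80 ± 0.27 on the log2 scale, and CSRNP2, a nuclear protein, by 3.07 ± 0.35 and 4.94 ± 0.43. LPAR2, a lysophosphatidic acid receptor, rose by 3.85 ± 0.52 and 3.36 ± 0.43 from input levels of at most 13.2 CPM. The raised peaks of ENKD1, CORO1C (an actin-binding coronin) and ASH1L (a histone methyltransferase) also started from inputs under 8 CPM in every library, so their log2 values of 2.63 to 3.36 have SEs of 0.63 to 0.80.

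Lowered peaks included several with high input levels. NCL, nucleolin, had 1740, 1530 and 1570 CPM in NC input and 520, 478 and 581 in NC IP, with 1050, 1200 and 1100 in KD input and 395, 438 and 418 in KD IP. The log2 of NCL was -1.62 ± 0.11 in NC (adjusted p = 1.23e-11) and -1.42 ± 0.11 in KD (1.19e-10). NAP1L1, a histone chaperone, had 238, 207 and 179 CPM in NC input and 47.2, 47.9 and 56.6 in NC IP, and its log2 was -2.04 ± 0.18 in NC and -2.05 ± 0.19 in KD. In both genes every IP library was below every input library.

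PPT1, a lysosomal thioesterase, had 360, 445 and 343 CPM in NC input and 141, 120 and 164 in NC IP, with 886, 1000 and 920 in KD input and 251, 258 and 287 in KD IP. IP against input gave log2 values of -1.43 ± 0.13 and -1.82 ± 0.12. The input level of PPT1 was 1.29 ± 0.13 higher in KD on the log2 scale. M6PR, a mannose 6-phosphate receptor that carries enzymes to lysosomes, fell most among the 10 lowered peaks, by 2.31 ± 0.53 in NC and 2.28 ± 0.49 in KD, from at most 35.4 CPM. CIAO2A (-1.69 and -1.45), XPO1, an export receptor (-1.90 and -1.42), SF1, a splicing factor (-1.36 and -1.41), ACSL1 (-1.36 and -1.40), ARPP19 (-1.34 and -1.53) and EIF3G, an eIF3 subunit (-1.37 and -1.28), completed the 10.

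**Figure D4:**
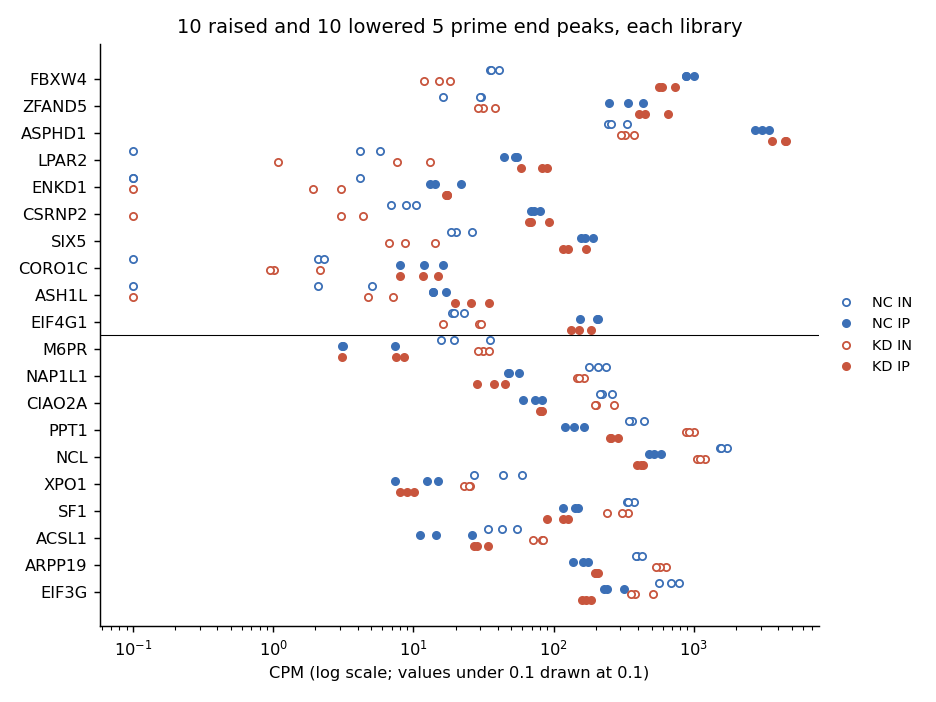
CPM (log scale) in each of the 12 libraries for the 10 raised (above the line) and 10 lowered (below it) peaks with the largest log2 in both conditions, among those with over 3 reads in every group; open points are input, filled points IP. In all 20 peaks the input and IP libraries of a condition do not overlap, which the rule that chose them required.

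The direction in which a peak moved went with its input level. Tested 5 prime end peaks had a median of 94 input CPM per kilobase, tested peaks in the last 10% 167. Across 5 prime end peaks, input CPM per kilobase and log2 IP over input had a Spearman rho of -0.65 in NC and -0.67 in KD; the input libraries enter both quantities, so part of such a relation is built in. With tested regions divided into low, middle and high input level, the median log2 of 5 prime end peaks minus that of the other peaks in 1 gene was 0.07 in NC and -0.03 in KD at the low level, 0.32 and 0.19 at the middle and 0.21 and 0.15 at the high level. The difference of medians over all input levels was larger, 0.48 against -0.15 in NC. The part of input level in the enrichment was not tested further.

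The most strongly covered 5 prime end peaks show this side of the range. After the region at TRNS1, YBX1, an RNA-binding cold shock protein, had the most input reads per kilobase, with 4260, 4380 and 3660 CPM in NC input and 1920, 2090 and 2190 in NC IP. Its log2 was -0.99 ± 0.11 in NC and -0.97 ± 0.11 in KD. SEM1, a proteasome lid component (-1.15 and -1.23), PSMC3, a proteasome ATPase (-1.06 and -1.14), FTH1, the ferritin heavy chain (-0.81 and -1.16), FAM32A (-1.03 and -1.02), SARS1, seryl-tRNA synthetase (-0.43 and -0.62), and SERBP1 (-0.80 and -0.82) were also lower in IP in both conditions. By library size alone SARS1 was -0.14 in NC and no longer called. ATP6V1F, a subunit of the vacuolar proton pump, was not called in either condition (0.11 ± 0.11, adjusted p = 0.411, and -0.19 ± 0.11, 0.158). ENY2 was -0.33 ± 0.11 in NC (adjusted p = 0.0186) and -0.10 ± 0.11 in KD (0.492), and its NC call was lost without any one of 5 NC libraries (-0.26 to -0.30).

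Distance from the start made a smaller difference. In NC the median log2 IP over input was 0.31 for the 184 tested peaks within 0 to 50 bases, 0.44 at 50 to 100, 0.45 at 100 to 200, 0.60 at 200 to 500, 0.55 at 500 to 1000 and 0.40 beyond 1000 bases. In KD the same bins had 0.21, 0.43, 0.55, 0.66, 0.61 and 0.42. The quartiles of all bins overlapped widely. Width and input level moved with distance: peaks at 0 to 50 bases were a median of 121 bases wide with 159 input CPM per kilobase, and those at 200 to 500 bases were 421 wide with 72. By width, 5 prime end peaks over 500 bases had medians of 0.84 in NC and 0.95 in KD, other peaks of that width 0.14 and 0.35, and up to 100 bases the medians were 0.32 and 0.21 against -0.39 and -0.31.

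**Figure D5:**
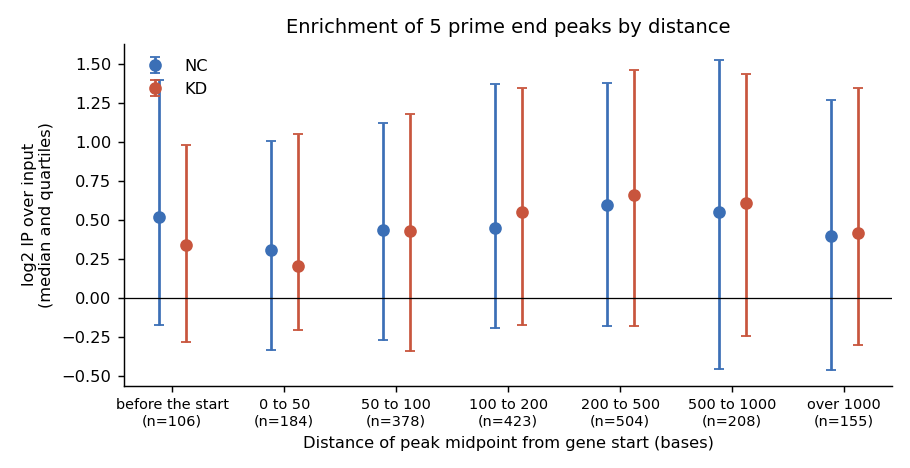
Median (points) and quartiles (bars) of log2 IP over input of tested 5 prime end peaks, in bins of the distance of the midpoint from the gene start, for NC and KD; n is the number of peaks in each bin. All medians lie between 0.21 and 0.66 and the quartile ranges overlap in every bin.

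Base composition at the start went with enrichment weakly. Over 1589 tested 5 prime end peaks with a RefSeq promoter sequence, the GC content of the 300-base window and log2 IP over input had a Spearman rho of 0.11 in NC and 0.14 in KD. The peaks with least GC, up to the lower quartile (28.7% to 62.3%), had medians of 0.20 and 0.13, and those above the upper quartile (73.7% to 85.3%) 0.65 and 0.68. Input CPM per kilobase was 122 in the former and 72.8 in the latter. Among the raised genes printed above the window's GC content ran from 67.3% for EIF4G1 to 77.7% for LPAR2, with 74.3% for ZFAND5. Among the lowered genes it was 55.3% for both CIAO2A and ARPP19, 57.7% for M6PR, 60.0% for XPO1 and 65.7% for PPT1. The lowered NAP1L1 (67.7%), NCL (70.3%) and ACSL1 (82.3%) were above EIF4G1.

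A peak called in a condition was chosen partly on the libraries in which it is measured, so peaks found in 1 set alone were also measured in the other condition. The 351 tested 5 prime end peaks named in NC and overlapping no KD peak had a median log2 IP over input of -0.17 in the KD libraries, where 10.5% were higher and 20.8% lower. The 188 such peaks of the last 10% had a median of -0.64, with 1.06% higher and 33.0% lower. For the 375 5 prime end peaks of the KD set alone the values in the NC libraries were -0.17, 9.87% and 22.9%, and for the last 10% -0.76, 2.29% and 40.4%. In the libraries of their own condition the medians were 0.44 and 0.42 at the 5 prime end. Peaks found in 1 condition alone were thus not raised on balance in the other.

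Genes with peaks at both ends allow the ends of 1 gene to be compared, so that its abundance cancels where both ends belong to 1 transcript. Such genes numbered 363, which is 17.9% of the genes with a 5 prime end peak and 20.1% of the 1805 with a peak in the last 10%. Ends were counted on the strand of each peak. In PPID, ARF5, RAPH1, SMARCD3 and SLAMF8, a peak opposite to the gene entered the 5 prime side. None of these genes was called in the both-end test in NC or KD. Reads were summed over all peaks at an end, so those under overlapping NC and KD peaks were counted once for each peak. Of 304 genes tested, the 5 prime over 3 prime ratio was higher in IP for 23 (7.57%) in NC and 27 (8.88%) in KD, and lower for 6 (1.97%) and 3 (0.987%). The ratio was greater in IP than in input, called or not, in 179 genes (58.9%) in NC and 190 (62.5%) in KD. These counts depended on single libraries. The higher count in NC fell to 7 and 8 without the first and second NC IP library and to 15 and 13 without the second and the third NC input library. The higher count in KD fell to between 14 and 17 without any 1 of the 3 KD input libraries, the first or second KD IP library or the second NC IP library. The lower count in NC fell to 0 without the first or second NC input or the first or second NC IP library, to 1 to 3 without the third NC input, the third NC IP, the first KD IP or the third KD input library, and the lower count in KD fell to 1 without any 1 of the KD input libraries or the first or second KD IP library. By edgeR, the enrichment of the ratio was called different between KD and NC in 0 genes (0.0%, smallest adjusted p 0.0795). At an unadjusted p under 0.05 there were 66 genes, and without the first KD input library 1 was called. A 5 prime percentage was also taken per gene and library, for genes with at least 15 reads per end over all 12 libraries. Genes without end reads in a library were left out of its median. The medians are therefore not over the same genes in every library, and a gene's percentage can rest on few reads. The median 5 prime percentage was 66.7%, 60% and 66.7% in NC input and 70.3%, 66.7% and 64.0% in NC IP, which overlap. In KD it was 66.7%, 66.7% and 62.1% in input and 70.8%, 75.2% and 73.7% in IP, which do not. The difference over both conditions was 5.32 points (exact permutation p = 0.03, adjusted over 15 comparisons 0.15), and it was 4.21 to 5.21 with an unadjusted exact p of 0.05 to 0.06 without the second NC input, the first NC IP, the second KD IP or the third KD IP library.

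EIF4G1 had the largest shift toward its 5 prime end when genes were ranked by the smaller log2 of NC and KD. At its 5 prime end lay 26.2%, 19.1% and 21.5% of its end reads, summed over peaks, in NC input and 83.2%, 83.2% and 79.7% in NC IP. In KD these were 20.6%, 29.8% and 30.3% in input and 81.3%, 81.0% and 84.7% in IP. The sum gave 108 NC input reads at the 5 prime end, where the EIF4G1 peak described above had 54. The percentages of EIF4G1 are therefore not shares of distinct reads. The log2 of the ratio was 4.0 ± 0.34 in NC (edgeR adjusted p = 4.24e-06) and 3.67 ± 0.34 in KD (1.04e-05). PPP6R1, a regulatory subunit of protein phosphatase 6, went from 3.32%, 2.76% and 3.33% in NC input to 27.7%, 24.9% and 25.4% in NC IP, and by log2 3.44 ± 0.26 in NC and 3.09 ± 0.26 in KD. ZEB2, a zinc finger repressor, had few 5 prime reads in either, a mean of 1.80% in NC input and 11.9% in NC IP, and 1.0% and 5.76% in KD. In all 3 genes the input and IP libraries were far apart. PACSIN3, ZNF664, PKP4, PROCA1 and WDR6 were also higher in both conditions. TUBG1, gamma-tubulin, was the 1 gene lower in both: 99.2% of its NC input reads and 94.2% of its NC IP reads were at the 5 prime end, from 3 and 36 reads at the 3 prime end.

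Peaks were also counted by the known roles of their genes. No list was tested against the other peaks or against another list. Each count below is over tested 5 prime end peaks, to be read against 29.1% higher and 15.2% lower in NC and 29.3% and 14.4% in KD over all tested 5 prime end peaks; overlapping peaks of a gene count separately. Peaks of zinc finger ZNF genes, most of them transcriptional repressors, numbered 33, with 10 higher and 2 lower in NC and 17 higher and 0 lower in KD, and medians of 0.86 and 1.22. ZNF274 had log2 3.62 ± 0.84 and 3.52 ± 0.84, from inputs near 1 CPM. ZNF664 had 1.05, 0 and 0 CPM in NC input and 10.6, 8.72 and 6.92 in NC IP.

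Lists of signalling, protein turnover, traffic, transport and chromatin genes had more higher than lower calls in both conditions, as all tested 5 prime end peaks did. MAP kinase cascade and DUSP phosphatase genes had 18 tested peaks, 6 higher and 3 lower in NC and 6 higher and 0 lower in KD. DUSP2, a phosphatase that inactivates MAP kinases, had 23.0, 10.1 and 32.4 CPM in NC input and 111, 98.4 and 62.3 in NC IP, and 60.9, 58.3 and 54.4 in KD input and 291, 283 and 403 in KD IP. The libraries of DUSP2 did not overlap, and its log2 was 2.04 ± 0.28 in NC and 2.49 ± 0.23 in KD. Ubiquitin ligases and deubiquitinases had 55 peaks, with 19 higher and 8 lower in NC and 18 and 4 in KD; TRIM44 was higher (1.07 ± 0.10 and 1.51 ± 0.10) and USP7 lower (-1.51 ± 0.22 and -0.82 ± 0.20). Membrane traffic genes had 60, with 18 higher and 6 lower in NC and 16 and 8 in KD; the small GTPases ARF6 (1.21 ± 0.16 and 1.72 ± 0.15) and RAB5A (1.37 ± 0.20 and 1.29 ± 0.20) were higher and AP2S1, an adaptor subunit, lower (-0.60 ± 0.14 and -0.85 ± 0.13; by library size alone -0.31 in NC and not called). Of 28 solute carrier peaks 9 were higher and 4 lower in NC, and 8 and 2 in KD. Chromatin regulators had 33, with 9 and 7 in NC and 11 and 3 in KD; SIRT1, a deacetylase, was at 0.88 ± 0.20 and 1.23 ± 0.20.

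Lists of translation, splicing and chaperone genes had more lower than higher calls in both conditions. Cytosolic ribosomal protein genes had 9 tested peaks, with 1 higher and 5 lower in NC and 1 higher and 8 lower in KD, and medians of -0.46 and -0.92. RPS14 had 1760, 1690 and 1830 CPM in NC input and 938, 723 and 870 in NC IP (-1.06 ± 0.10 in NC and -1.10 ± 0.11 in KD), while the peak of RPS7 was higher (2.22 ± 0.39 and 2.31 ± 0.43) from 9.0 CPM. Cap binding and initiation factors had 17, with 2 higher and 6 lower in NC and 3 and 9 in KD. The 2 peaks higher in both conditions were overlapping peaks of EIF4G1, and EIF4E2, a cap-binding protein, was lower (-0.95 ± 0.10 and -0.64 ± 0.10). Splicing factors and hnRNPs had 18, with 5 higher and 7 lower in NC and 1 and 10 in KD, among them RBM39 (-0.92 ± 0.11 and -0.79 ± 0.11) and HNRNPA1 (-0.70 ± 0.12 and -0.81 ± 0.13). Elongation and termination factors had 5, with 2 lower in NC and 4 in KD, and the release factor ETF1 was at -0.88 ± 0.11 and -1.04 ± 0.11. Heat shock and chaperone genes had 10, with 1 higher and 4 lower in NC and 0 and 5 in KD; HSP90B1, an endoplasmic reticulum chaperone, was at -0.64 ± 0.09 and -0.54 ± 0.09, and its peaks also contain the gene of MIR3652. RPS14, EIF4E2, ETF1 and HSP90B1 had mean inputs over 1000 CPM in both conditions, and over all 5 prime end peaks the log2 fell with input level as given above. Other peaks of these lists that were lower in both conditions had less input. Mean input in NC and KD was 543 and 306 CPM for RPL35, 284 and 159 for NONO and 671 and 605 for RBM39. The part of input level in these lists was not tested.

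The remaining lists were smaller or mixed. RNA modification enzymes and readers had 16 tested peaks, 7 higher and 1 lower in NC and 4 and 1 in KD; the pseudouridine synthase PUS1 was at 2.20 ± 0.24 and 2.12 ± 0.24, and IGF2BP2, an RNA-binding reader, at 1.37 ± 0.25 and 1.82 ± 0.24. Integrated stress response genes had 12, with 8 higher and 0 lower in NC and 2 and 0 in KD, and STC2 was at 0.88 ± 0.16 and 0.79 ± 0.21. Immediate early and stress transcription factors had 10, with 3 higher and 2 lower in NC and 5 and 2 in KD; FOSL2 was higher (1.75 ± 0.26 and 1.71 ± 0.22) and NFE2L2 lower (-1.13 ± 0.24 and -1.11 ± 0.21). Decapping and decay factors had 11, with 0 higher and 1 lower in NC, UPF2 (-0.54 ± 0.11), and 0 called in KD. Cell cycle genes had 10, with 2 higher and 1 lower in NC and 3 and 0 in KD; CDK9 was called in KD alone (0.20 ± 0.23 and 1.15 ± 0.21), and the change between conditions was 0.96 ± 0.31 (adjusted p = 0.236). Glycolysis genes had 2, with 0 called in NC and 1 higher and 0 lower in KD. PKM was the one called in KD (0.48 ± 0.24 and 0.56 ± 0.23, edgeR adjusted p = 0.0471 in KD), but not by DESeq2 (adjusted p = 0.059). GAPDH was not called (0.14 ± 0.19 and 0.02 ± 0.19). Actin and adhesion genes had 12, with 0 higher and 2 lower in NC and 3 and 4 in KD; DIAPH1, a formin, was at -1.10 ± 0.18 and -0.99 ± 0.17. Inflammatory signalling genes had 6, with 2 higher and 1 lower in NC and 0 and 1 in KD. No gene of the list of m7G and cap methyltransferases had a region.

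Whether METTL1 knockdown altered the enrichment at the 5 prime end was tested as the difference of the IP over input log2 between KD and NC. No 5 prime end peak was called by edgeR, 0 of 1958, as was the case for all 5113 regions (0.0%). At an unadjusted p under 0.05 there were 237 (12.1%), against 11.9% of all regions, and the smallest adjusted p was 0.116. The median change was 0.01, with quartiles at -0.39 and 0.45. DESeq2 called 7. The 5 prime read share differed between IP and input by 0.38 points less in KD (-0.38, exact permutation p = 0.815). Among both-end genes 0 of 304 were called changed (0.0%), and 66 (21.7%) had an unadjusted p under 0.05. In simulated counts the test of the change in single peaks found 36.3% of 2-fold and 76.9% of 4-fold changes. The both-end fit found 8.5% of 2-fold and 45.8% of 4-fold differences between IP and input in NC. The lack of calls therefore does not show that no peak or gene changed.

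HAPSTR1, a stress response gene, had the smallest p in the upward direction. It had 94.3, 84.7 and 105 CPM in NC input and 210, 139 and 149 in NC IP, and 114, 150 and 170 in KD input and 522, 579 and 577 in KD IP. HAPSTR1 was enriched by log2 0.81 ± 0.17 in NC and 1.95 ± 0.16 in KD, a change of 1.14 ± 0.23 (adjusted p = 0.116). The KD IP libraries stood above all others, while the other groups lay closer together. By DESeq2 the change had an adjusted p of 0.0364, and without the first NC IP library edgeR gave 1.35 (0.0157). With the replicate number as a block edgeR gave 1.16 (adjusted p = 0.00428). SRF, a transcription factor of immediate early genes, had a change of 0.65 ± 0.16 (adjusted p = 0.132), VEGFA, the vascular growth factor, 0.57 ± 0.16 (0.150) and STK40 1.05 ± 0.31 (0.180). With the same block edgeR also called SRF (adjusted p = 0.0111) and STK40 (0.0137).

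RPL28, a ribosomal protein gene, had the smallest p in the downward direction. It had 35.6, 19.0 and 12.7 CPM in NC input and 46.1, 41.1 and 43.4 in NC IP, and 24.4, 24.9 and 12 in KD input and 3.73, 3.98 and 8.07 in KD IP. KD IP was below KD input and NC IP above NC input, without overlap in either. The change was -2.91 ± 0.61 (adjusted p = 0.116), -3.52 without the first NC input library (0.0353) and -2.99 with the replicate number as a block (0.036). CSF1, the macrophage colony stimulating factor, had a change of -1.61 ± 0.39 (0.132): its peak had 46.1, 56.0 and 39.0 CPM in NC IP and 64.6, 70.2 and 54.6 in KD IP, but 16.8, 11.4 and 24.3 in NC input and 52.8, 88.9 and 75 in KD input. The change for APP, the amyloid precursor, was -1.12 ± 0.29, for TRIP12 -1.63 ± 0.44 and for AREL1 -2.71 ± 0.80, with adjusted p of 0.132, 0.150 and 0.185. DESeq2 called RPL28, CSF1, APP and TRIP12. The authors' deposited table has an adjusted p under 0.05 for its own difference at 23 of the 3029 peaks (0.759%), 7 higher and 16 lower in KD, and at 0.783% of all peaks. In the authors' deposited table RPL28 stood at -3.02, CSF1 at -1.75, HAPSTR1 at 1.01 and AP1S2 at 2.20 on the log2 scale.

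Levels themselves differed between KD and NC at many 5 prime end peaks. In input 343 (17.5%) were higher and 312 (15.9%) lower in KD, where 17.9% and 21.9% of all regions were called higher and lower. In IP 398 (20.3%) were higher and 313 (16.0%) lower, against 20.9% and 20.1% of all. In bulk RNA, fewer cells of a kind and less RNA per cell cannot be told apart. The HEK293 markers given above moved with this comparison and the macrophage markers in the opposite direction, and their part in it was not tested.

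Among peaks higher in KD input, FMNL1, a formin of blood cells, had 5.24, 0 and 0 CPM in NC and 8.12, 56.4 and 62.0 in KD (log2 4.41 ± 0.89, adjusted p = 3.15e-04). LRP12 had 1.05, 0 and 3.47 CPM in NC and 22.3, 43.0 and 35.9 in KD (4.38 ± 0.71). STAT6, which transmits interleukin-4 signals, had 1.05, 11.4 and 9.25 in NC and 28.4, 45.9 and 56.5 in KD (2.62 ± 0.56). KD libraries were above NC libraries in these 3 genes. List counts are to be read against the 17.5% higher and 15.9% lower over all tested 5 prime end peaks. The inflammatory list had 5 of 6 tested peaks higher and 0 lower in KD input, MAP kinase and DUSP genes 8 of 18 and 0, immediate early factors 6 of 10 and 0, actin and adhesion 6 of 12 and 0, and macrophage markers 3 of 4 and 0. Membrane traffic had 10 of 60 higher, a share near that of all peaks, and 0 lower. Calls went both ways for solute carriers (9 higher and 4 lower of 28), heat shock genes (5 and 2 of 10), ubiquitin ligases and deubiquitinases (8 and 11 of 55), RNA modification enzymes and readers (4 and 4 of 16), integrated stress response (2 and 3 of 12) and cell cycle genes (2 and 2 of 10). TGFB1 had 238, 323 and 215 CPM in NC input and 616, 694 and 657 in KD input (1.35 ± 0.13), and CD74, a macrophage marker, 25.1, 35.4 and 50.9 in NC and 105, 87.0 and 100 in KD (1.39 ± 0.25).

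Among peaks lower in KD input, PCDH10, a protocadherin, had 66.0, 96.0 and 62.4 CPM in NC and 8.12, 0.956 and 8.70 in KD (-3.66 ± 0.49, adjusted p = 1.43e-06). FLNC, a muscle-type filamin, had 74.4, 34.1 and 60.1 in NC and 0, 4.78 and 8.70 in KD (-3.65 ± 0.56), and SNRPE, a spliceosome core protein, 45.0, 43.0 and 55.5 in NC and 4.06, 0 and 8.70 in KD (-3.51 ± 0.53). DPH5, which acts in diphthamide synthesis, had 239, 201 and 236 in NC and 14.2, 13.4 and 45.7 in KD (-3.23 ± 0.32). Every KD library was below every NC library in these 4 genes. Ribosomal protein genes had 7 of 9 tested peaks lower and 0 higher, chromatin regulators 7 of 33 lower and 1 higher, and ZNF genes 6 of 33 and 1. Cap binding and initiation factors had 4 of 17 lower and 0 higher, splicing factors and hnRNPs 4 of 18 and 0, decapping and decay factors 4 of 11 and 0, and elongation and termination factors 1 of 5 and 0. RPL36A had 851, 874 and 781 CPM in NC input and 231, 273 and 213 in KD input (-1.80 ± 0.19). TCEAL9, on the HEK293 list, had 377, 449 and 288 in NC and 181, 201 and 142 in KD (-1.08 ± 0.18).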

How the data were processed

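The one deposited table lists 9958 peaks, named for NC or KD, with raw read counts of 12 libraries per peak as the authors deposited them. Reads had been cleaned with fastp 0.23.4 and placed on GRCh38, per the submitters' processing notes; the aligner, counter and peak caller are not given in the sources used here. The authors' deposited columns also hold a fold enrichment and p-value per peak and a log2 difference between conditions with its p-value; they were used to describe peaks and, in 1 alternative, to keep the peaks above the median fold of their set.

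Peaks were set against RefSeq gene bodies (GRCh38.p14), with 105 readthrough genes ignored, and 165 midpoints before the gene start were counted in. edgeR 4.0.16 (R 4.3.3) fitted 4 group means to all regions that passed a filter (minimum count 10, total 15) with TMM scaling and quasi-likelihood tests; SE is the log2 value over the root of F. Both-end genes were fitted with the library as a block and at least 15 reads per end. Read shares were compared by exact permutation of libraries. DESeq2 1.42.0, other scalings, filters and windows, and leaving out libraries were alternatives. Same-numbered libraries did not deviate together (r from -0.08 to 0.06 over 12 pairs). The scripts were tested on simulated data.

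Named peaks, 1 per gene, were the 10 highest and 10 lowest, by the smaller log2 of NC and KD, of those called alike in both conditions with libraries that do not overlap and over 3 reads in every group, the 5 smallest p per direction of the change among peaks with over 3 reads in every group, up to 8 per direction of the input difference (libraries that do not overlap, over 3 reads in both input groups) and of the both-end ratio, the 10 with most input reads per kilobase, and up to 4 per gene list (25 lists); not all are printed. DPP9, AP1S2 and the genes in the closing section were chosen after their values were seen. The members and lists were chosen with earlier results of these data known. CPM is a library's count scaled to a common total of peak reads.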

Additional observations from a re-analysis of the deposited data

Results flagged for a closer look

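Both tested 5 prime end peaks called in opposite directions in NC and KD are given here. ETAA1, which activates the ATR checkpoint kinase, had 35.6, 35.4 and 48.5 CPM in NC input and 20.2, 11.8 and 22.7 in NC IP, against 0, 0.956 and 0 in KD input and 1.6, 2.99 and 7.45 in KD IP. Its log2 IP over input was -1.12 in NC (edgeR adjusted p = 0.0468) and 3.21 in KD (0.0206), where the input held 1 read over 3 libraries. The change was 4.33 ± 1.17, with an adjusted p of 0.150 in the edgeR test of the difference. RNPS1, a splicing-dependent factor deposited on messenger RNA, had 18.9, 13.9 and 8.09 CPM in NC input and 4.24, 6.23 and 4.41 in NC IP, against 3.05, 3.82 and 1.09 in KD input and 6.94, 8.46 and 11.8 in KD IP. Its change was 3.16 ± 0.90, with an adjusted p of 0.167. Both peaks were named in the KD set and had more input in NC than in KD.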

How the results depend on the processing

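Of 1759 values of named peaks under alternatives, 1673 kept their direction and side of the threshold, 75 lost the call, 11 gained one and 0 turned. Peaks with few reads are limited by depth. By library size alone 176 peaks were lower in NC IP and the medians were 0.78 (NC) and 0.69 (KD); DESeq2 gave an NC median of 0.55 and 7 changed peaks; no count filter gave 0.89 and 0.87 and 8 changed peaks; at least 50 reads gave an NC median of 0.64. One peak per cluster gave 365 higher and 183 lower in NC and 345 and 168 in KD, with a KD median of 0.46. Peaks above the median authors' fold gave 156 and 88 in NC, 139 and 97 in KD, 144 and 88 for KD over NC in input, 125 and 88 in IP, 10 changed peaks, a KD median of 0.31, and shares of -1.26 points in KD (exact permutation p = 0.7) and 0.18 over both conditions (0.885). The 5 prime part of both-end genes was 3.76 points with 5% windows (exact permutation p = 0.165) and 3.62 with 20% windows (0.12). Both-end counts were 10 higher and 2 lower in NC and 12 and 1 in KD with 5% windows, 11 and 7 lower with 20% windows, and 3 changed with at least 50 reads per end. The cause of these differences was not tested, beyond fewer peaks in the narrower sets.

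With the replicate number as a block, 6 peaks were called changed, and the both-end share was 5.32 points with an exact permutation p of 0.0625. Input and IP titles share these numbers, but whether same-numbered libraries form pairs is not stated. Their low correlations do not settle it. Without 1 library at a time, changed peaks ranged from 0 to 1, medians from 0.42 to 0.64 in NC and 0.49 to 0.60 in KD, the both-end share from 4.21 to 6.06, both-end genes higher from 7 to 26 in NC and 14 to 28 in KD, lower from 0 to 7 and 1 to 4, and changed from 0 to 1.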

Other observations

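Of the 2482 5 prime end peaks whose gene has a listed strand, 12 lay on the strand opposite to the gene in RefSeq, so that their 5 prime end is the 3 prime end of the gene. The one with most reads was at PPID, a cyclophilin, and was lower in IP in NC (log2 -1.21 ± 0.16, edgeR adjusted p = 1.03e-06) and in KD (-0.63 ± 0.16, 0.00283). The peak at LAMB1, a laminin chain, was lower in NC (-1.25 ± 0.51, adjusted p = 0.0477) and not called in KD (-0.09 ± 0.67, 0.924). The peaks at the start of CDK9 contain the genes of MIR3960 and MIR2861, and those of KLF7 the gene of MIR7845. The KD-set KLF7 peak had a log2 IP over input of 1.08 ± 0.55 in NC (adjusted p = 0.108) and 2.0 ± 0.51 in KD (0.00249).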
